A study of Homo sapiens with 7 samples.

Results

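The genes described here make, modify and burn long-chain fatty acids. They were the 10 genes ACLY, ACACA, FASN, SCD, FADS1, FADS2, ELOVL6, LPIN1, CPT1A and HADHA, and each was read from every probe set that the array's annotation gives to that gene alone. This rule found 26 of the 54675 probe sets on the array, and they belonged to 9 of the 19775 genes measured. FADS1 is given no value, because its 3 probe sets are annotated to it together with the microRNA gene MIR1908.

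HT1080 cells, an established human fibrosarcoma line, were grown in 7 cultures, and the RNA of each was measured on 1 Affymetrix U133 Plus 2.0 array. One culture received 5% serum from patients who had taken pycnogenol, a pine bark extract rich in flavonoids, and one received 5% control serum. The other cultures with an addition received 11.25 ng/ml of catechin, 6.25 ng/ml of epicatechin, 6.25 ng/ml of taxifolin or 2195 ng/ml of resveratrol. All 6 additions were present for 2 h, and the last culture was untreated. The labels give neither an incubation time nor a solvent for the untreated culture, and they leave unstated the source of the control serum and whether fetal bovine serum was in the fresh medium. No labelled group has a replicate, so a difference between single arrays has no replicate check. Values are signal intensities in arbitrary units, which rank one probe set across arrays and are not set against those of another probe set.

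Cells make saturated fatty acids in the cytosol from citrate-derived acetyl-CoA. ACLY (ATP citrate lyase) releases the acetyl-CoA, ACACA (acetyl-CoA carboxylase alpha) turns it into malonyl-CoA in the committed step, and FASN (fatty acid synthase) builds palmitate. ELOVL6 lengthens palmitate, SCD (stearoyl-CoA desaturase) puts the first double bond into saturated chains, and FADS1 and FADS2 desaturate polyunsaturated chains. LPIN1 (lipin 1) makes diacylglycerol from phosphatidic acid and also acts in the nucleus as a coactivator of PPAR-dependent oxidation genes. CPT1A starts the carnitine shuttle that carries long chains into mitochondria and is inhibited by malonyl-CoA, and HADHA is the alpha subunit of the mitochondrial trifunctional protein of beta-oxidation. SREBP transcription factors, which sterols and INSIG1 hold back, are known to drive many of the synthesis genes together with NF-Y, a factor that binds the CCAAT box.

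The arrays were alike in the 3'/5' ratio of GAPDH, and less so in that of ACTB and in median signal. Median signals were 114 to 136 on the 7 arrays, and centring each array on its median changed the serum calls, as given further on. The GAPDH ratio ran from 0.961 to 1.12. The ACTB ratio was 2.40 untreated, 2.52 with resveratrol, 2.55 with control serum and 2.82 with pycnogenol serum. It was 3.05 with taxifolin, 3.56 with catechin and 4.02 with epicatechin. Whether this difference bears on the comparisons was not tested. Genes were compared where their mean signal reached 269, the median over genes, which 9888 genes did. Of 8 mesenchymal markers, 7 were above that signal and THY1 was under it. The epithelial markers KRT8 and KRT18 were above it and EPCAM, CDH1 and KRT19 under it, and none of 3 endothelial, 3 adipocyte and 3 hepatocyte markers reached it. Of 6 blood cell markers, HBB alone was above it, and the summed signal of the 6 was 693 to 854 in the 2 cultures with test serum and 582 to 720 in the 5 without.

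The 250 bases upstream of the first listed RefSeq transcript start are shown for SCD and LPIN1, because these members passed the serum test described further on. They come from RefSeq on GRCh38.p14, are written 5′ to 3′ on the + strand, and cover chr10:100346983-100347232 for SCD and chr2:11746382-11746631 for LPIN1, which has 3 listed starts. The windows of the other LPIN1 starts end at 11677543 and 11724314, so the window shown is the most downstream. Capitals mark CCAAT.
SCD: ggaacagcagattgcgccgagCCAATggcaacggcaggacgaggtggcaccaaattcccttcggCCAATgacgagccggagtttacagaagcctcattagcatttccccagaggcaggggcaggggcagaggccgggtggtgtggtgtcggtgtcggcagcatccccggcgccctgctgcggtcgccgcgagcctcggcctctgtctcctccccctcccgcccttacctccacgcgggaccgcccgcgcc
LPIN1: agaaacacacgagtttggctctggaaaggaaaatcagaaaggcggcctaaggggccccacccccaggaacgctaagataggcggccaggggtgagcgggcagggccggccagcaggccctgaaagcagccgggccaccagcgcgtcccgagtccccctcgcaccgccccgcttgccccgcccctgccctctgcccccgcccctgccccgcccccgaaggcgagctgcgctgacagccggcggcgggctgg
The SCD window holds CCAAT on the + strand with its first base 229 and 186 bases before the start, and the LPIN1 window holds none on either strand. Over the 15 windows of 9 listed genes (FASN was not among them), CCAAT was found on either strand in 5, from ACACA, ACLY and SCD, against 32% of the 35116 windows of all genes. The sterol regulatory element letters TCACNCCAC were found in 0 of 15 windows against 0.883% of all, and the palindromic E-box CACGTG in 0 of 15 against 6.34%. None of these motifs contains another, and a match or its absence in so short a window is only a description.

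**Figure D1:**
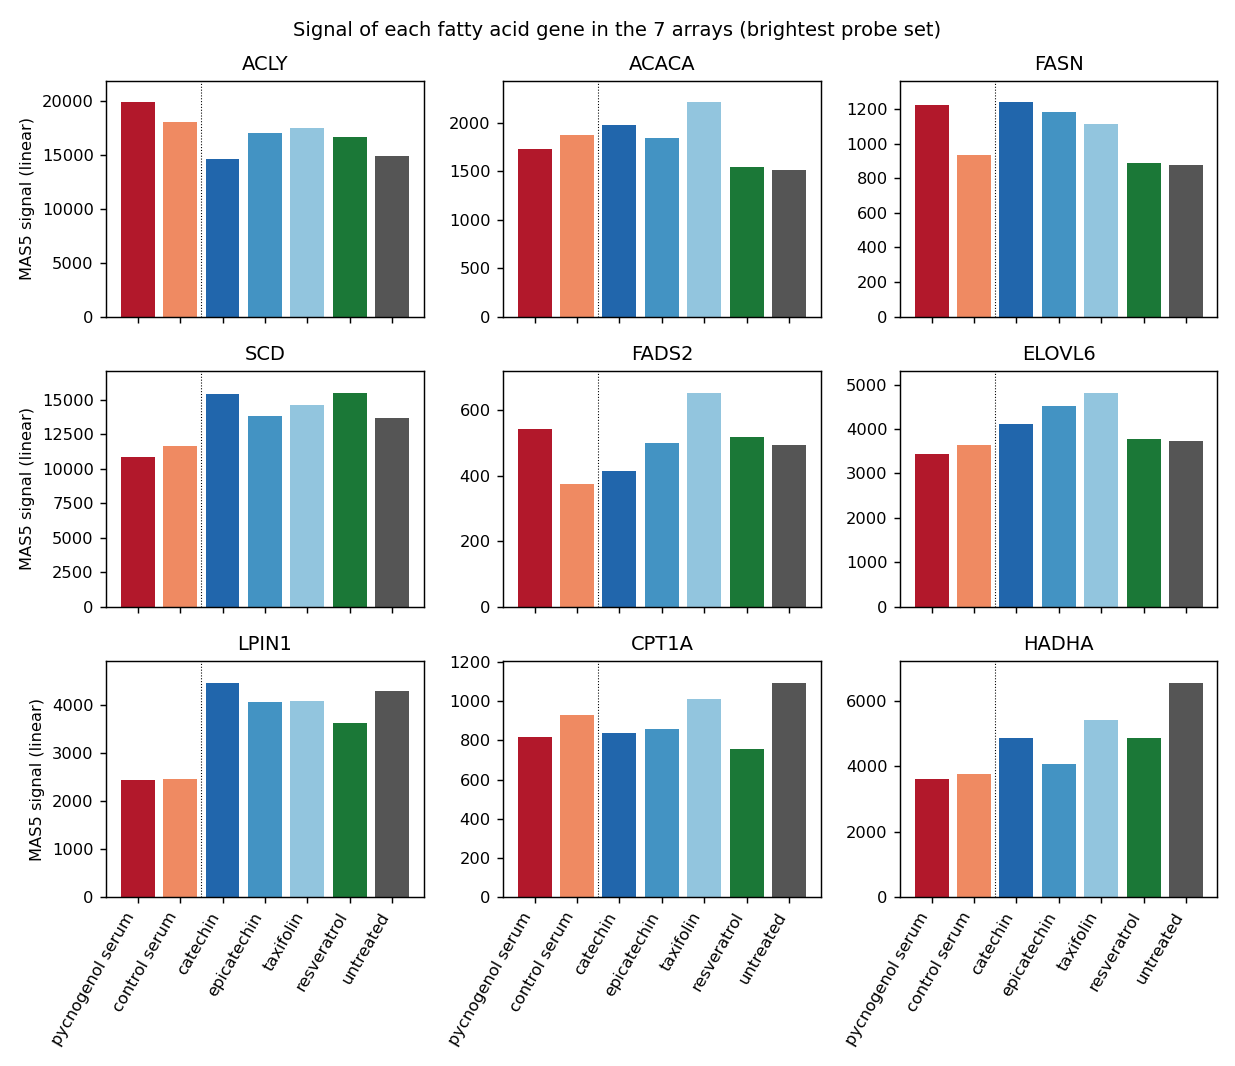
Signal of each of the 9 measured genes in the 7 cultures, 1 bar per array on a linear axis in arbitrary units, with the 2 serum cultures left of the dotted line in each panel. For LPIN1 the 2 serum bars, at 2444 and 2451, lie below all 5 others, which run from 3625 to 4472.

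In the first steps of synthesis, ACLY was the member whose signal was higher with serum. Its signal was 19904 with pycnogenol serum and 18127 with control serum, against 14688 with catechin, 17037 with epicatechin, 17512 with taxifolin, 16741 with resveratrol and 14926 untreated. Both serum values were above all 5 others. ACACA read 1735 with pycnogenol serum and 1878 with control serum, against 1975 with catechin, 1839 with epicatechin, 2210 with taxifolin, 1540 with resveratrol and 1515 untreated. FASN read 1224 with pycnogenol serum and 936 with control serum, against 1238 with catechin, 1181 with epicatechin, 1116 with taxifolin, 888 with resveratrol and 879 untreated. For ACACA and FASN the serum cultures lay within the range of the others, and the untreated and resveratrol cultures were the lowest of the 7 in both genes.

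Of the modifying enzymes, SCD and ELOVL6 were lower in both serum cultures. SCD read 10834 with pycnogenol serum and 11657 with control serum, against 15445 with catechin, 13827 with epicatechin, 14587 with taxifolin, 15521 with resveratrol and 13669 untreated. The 5 cultures without test serum spanned only 0.18 on the log2 scale, the narrowest spread of the 9 members, and both serum values lay below them. ELOVL6 read 3440 with pycnogenol serum and 3643 with control serum, against 4106 with catechin, 4514 with epicatechin, 4820 with taxifolin, 3764 with resveratrol and 3733 untreated. Its serum values were also the lowest, though the untreated and resveratrol cultures came close. FADS2 read 541 with pycnogenol serum and 376 with control serum, against 415 with catechin, 501 with epicatechin, 654 with taxifolin, 517 with resveratrol and 495 untreated. Here the 2 sera lay apart, control serum giving the lowest value of all and taxifolin the highest.

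LPIN1, at the glycerolipid step, separated the cultures most clearly. Its signal was 2444 with pycnogenol serum and 2451 with control serum, against 4472 with catechin, 4059 with epicatechin, 4096 with taxifolin, 3625 with resveratrol and 4297 untreated. The 2 serum values were nearly equal, and both lay well below the lowest of the other 5.

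Of the oxidation genes, HADHA was lower in both serum cultures than in any other, and CPT1A was not. CPT1A read 817 with pycnogenol serum and 931 with control serum, against 839 with catechin, 859 with epicatechin, 1010 with taxifolin, 755 with resveratrol and 1095 untreated, so that the serum cultures lay among the others. HADHA read 3615 with pycnogenol serum and 3777 with control serum, against 4877 with catechin, 4065 with epicatechin, 5432 with taxifolin, 4874 with resveratrol and 6563 untreated. Both serum values were the lowest for HADHA, and the untreated culture was the highest of the 7 for both oxidation genes.

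Whether serum went with a difference in these genes was tested by setting the 2 cultures with test serum against the 5 without. LPIN1 fell by 40.3% in the serum cultures and SCD fell by 23.0%. No member of the 9 passed the test in the higher direction. At an unadjusted limma p under 0.05, ACLY alone was higher and 3 members were lower. In either direction, 2572 of all 9888 genes had such a p. The arrays measured the RNA of whole cultures, so fewer cells carrying a transcript and less transcript per cell cannot be told apart. In limma, with Benjamini-Hochberg adjustment over all 9888 genes, LPIN1 differed by -0.74 on the log2 scale (95% interval -0.95 to -0.53, adjusted p = 0.000825, n = 2 and 5) and SCD by -0.38 (-0.54 to -0.21, adjusted p = 0.00893). Thus 2 of 9 members were called at an adjusted p of 0.05, both lower, where 10.1% of all genes were called, 6.02% lower and 4.13% higher. The cultures within each side had different treatments, so these p-values measure only the spread among these 7 arrays.

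The other 7 members did not pass. HADHA differed by -0.46 (-0.77 to -0.15) with a limma adjusted p of 0.0582, and ACLY by 0.24 (0.056 to 0.41) with a limma adjusted p of 0.0902. ELOVL6 differed by -0.24 with an interval of -0.48 to 0.0055 and FADS2 by -0.18 with an interval of -0.62 to 0.26. The intervals of ACACA (-0.31 to 0.32), FASN (-0.33 to 0.39) and CPT1A (-0.39 to 0.29) lay on both sides of 0, with differences of 0.0070, 0.028 and -0.051. The median of the 6 synthesis and desaturation members was -0.086, and that of all genes -0.010. Without an overlap of the 2 sides, 4 members lay below in the serum cultures (SCD, ELOVL6, LPIN1 and HADHA) where 16.1% of all genes did, and 1 lay above (ACLY) where 13.5% did.

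LPIN1 was called in 18 of 18 settings tried, with differences of -0.79 to -0.57. SCD lost its call without the pycnogenol serum array (-0.32, limma adjusted p = 0.107) and when its probe sets were averaged (-0.22, limma adjusted p = 0.180), and also with no signal filter. Centring each array on its median moved the median of all genes by 0.115 and the split of calls to 1256 higher and 350 lower, against 408 higher and 595 lower; ACLY was then called (0.35, limma adjusted p = 0.0180) and CPT1A turned to 0.064, while LPIN1 and SCD stayed lower.

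**Figure D2:**
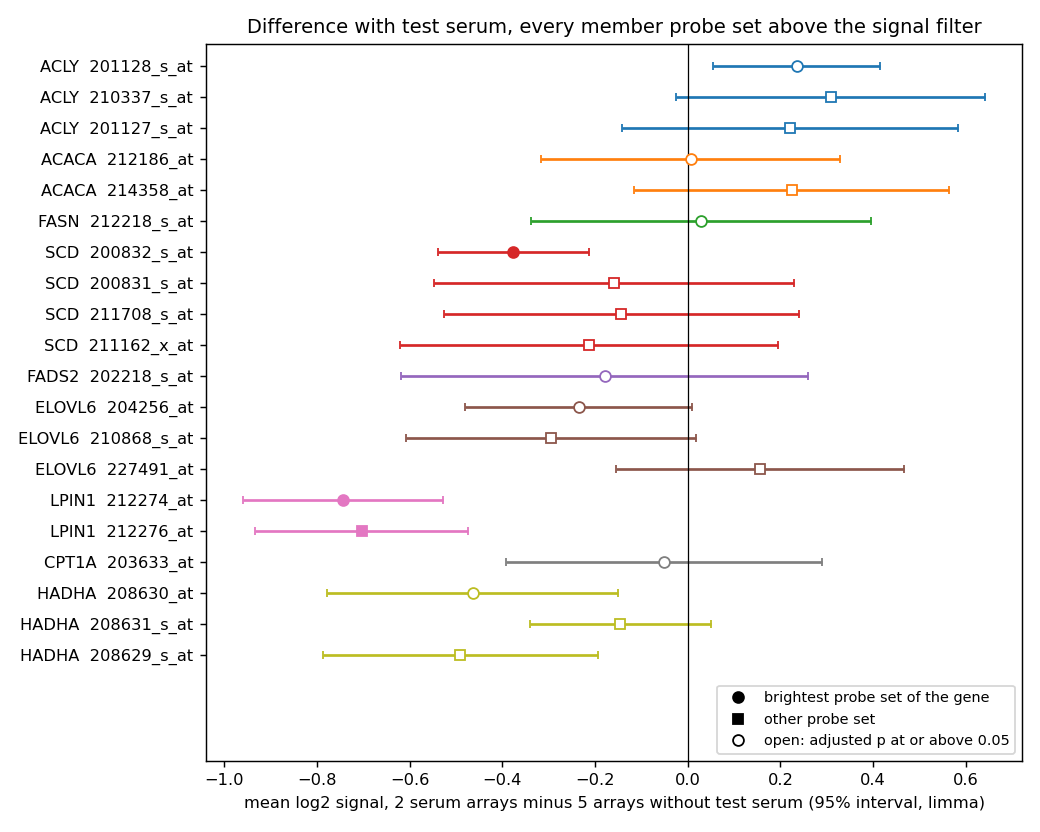
Log2 difference between the mean of the 2 test serum cultures and the mean of the 5 others for each member probe set above the signal filter, with the 95% interval of the limma fit as whiskers, circles for the brightest probe set of a gene, squares for the others, and filled symbols for an adjusted p under 0.05. Both LPIN1 probe sets lie near -0.7, and the first SCD probe set at -0.38 lies lower than the other 3.

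Both LPIN1 probe sets above the signal filter were called lower with serum, and the 3 HADHA, 3 ACLY and 4 SCD probe sets each ran in 1 direction, with 1 of these called. Those of ELOVL6 ran both ways. Of the 26 probe sets 20 reached the signal filter, and 7 of these lay below all 5 other cultures in both serum cultures, 3 above and 10 overlapped, where 14.8% of all 17649 probe sets lay below and 12.5% above. The second LPIN1 probe set read 1964 with pycnogenol serum and 2118 with control serum, against 3053 to 3691 in the other 5, a difference of -0.70 (limma adjusted p = 0.00283 over all probe sets). With the probe sets fitted separately, both LPIN1 probe sets and the brightest SCD probe set were called, all lower, where 7.09% of all were called, 4.35% lower and 2.74% higher.

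The other SCD probe sets were lower by less than the brightest one and were not called. In order of brightness they differed by -0.16, -0.14 and -0.21, and in each the serum cultures overlapped the others. All 3 HADHA probe sets were lower in both serum cultures than in any other, with differences of -0.46, -0.15 and -0.49 and limma adjusted p-values of 0.0743, 0.361 and 0.0503. The 3 ACLY probe sets differed by 0.24, 0.31 and 0.22, none called, and only the first lay above all others. Probe sets went opposite ways in ELOVL6, where the 2 brighter ones differed by -0.24 and -0.30 and the dimmest by 0.16. In ACACA the second probe set differed by 0.22 with both serum values above all others, beside 0.0070 for the first. The second probe sets of FASN and FADS2, the dimmest of LPIN1 and 3 of the 4 of CPT1A were under the filter, and their values do not bear on a direction.

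Neighbouring genes of the pathway, from lists drawn up by role, were read in the same limma fit. In mitochondrial beta-oxidation 3 of 16 genes above the filter were called lower and 0 higher, where 6.02% of all genes were called lower and 4.13% higher. At an unadjusted limma p under 0.05 these counts were also 3 and 0. In either direction, 2572 of all 9888 genes had such a p. Of the 16, 13 lay below 0 and 3 above, and the list median was -0.10 against -0.010 for all genes. CPT2, which rebuilds acyl-CoA inside mitochondria after the carnitine shuttle, read 1151 with pycnogenol serum and 1178 with control serum, against 1588 to 1881 in the other 5 (-0.53, limma adjusted p = 0.00903). ACADVL, the very long chain acyl-CoA dehydrogenase, differed by -0.35 (limma adjusted p = 0.0234) and ETFDH, which passes electrons from these dehydrogenases to ubiquinone, by -0.45 (limma adjusted p = 0.0253). The second probe sets of CPT2 and ETFDH differed by -0.48 and -0.25 without a call (limma adjusted p = 0.0831 and 0.329 over all probe sets). ETFDH lost its call with probe sets averaged, with median centring, with no signal filter and without the epicatechin array. ACADVL also lost its call with median centring, and CPT2 kept its call there. The carnitine carrier SLC25A20 differed by -0.028, and by 0.087 with arrays centred on their medians. In peroxisomal oxidation 1 of 11 was called, the carnitine acetyltransferase CRAT at -0.67 (limma adjusted p = 0.0108). CRAT's second probe set was under the filter and ran the other way, and averaging both gave 0.32. ACAA1, a peroxisomal thiolase, and HSD17B4, the peroxisomal bifunctional enzyme, differed by -0.36 and -0.27 with limma adjusted p-values of 0.0566 and 0.0572.

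Of the genes that supply acetyl-CoA and NADPH or activate fatty acids, 1 of 9 was called, where 10.1% of all genes were, 6.02% lower and 4.13% higher. The same shares stand beside the counts of the other lists in this paragraph. ACSS2, which makes acetyl-CoA from acetate, read 261 with pycnogenol serum and 382 with control serum, against 437 to 607 in the other 5 (-0.74, limma adjusted p = 0.0363). ACSS2 lost its call with quantile normalization, loess, median centring and no signal filter, and without the catechin, epicatechin or untreated array. ACACB, the second carboxylase, and MLYCD, which breaks malonyl-CoA down again, differed by -0.79 and -0.36 with limma adjusted p-values of 0.186 and 0.363. In mitochondrial fatty acid synthesis 1 of 5 was called, the reductase subunit CBR4 at -0.54 (limma adjusted p = 0.0426), and its other probe set above the filter differed by -0.34 without a call. CBR4 lost its call without the eBayes trend, with median centring, probe sets averaged or fitted separately, and no signal filter. Leaving out the catechin, taxifolin or untreated array also removed the call of CBR4. HSD17B8, the partner subunit of CBR4, differed by -0.37 and MECR, which completes each cycle, by -0.21, both uncalled. In glycerolipid synthesis and storage 1 of 12 was called, LPIN2, the relative of LPIN1 with the same enzyme activity, at -0.68 (limma adjusted p = 0.0122). It read 566 with pycnogenol serum and 756 with control serum, against 938 to 1154 in the other 5, and its second probe set differed by -0.68 as well (limma adjusted p = 0.0532). With no signal filter LPIN2 lost its call. HILPDA, an inhibitor of lipid breakdown, and GPAM, which starts glycerolipid synthesis, differed by 0.37 and 0.22 and were not called.

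Among 12 genes of elongation and desaturation outside the members, 0 were called, where 10.1% of all genes were, and the list median was 0.014. At an unadjusted limma p under 0.05, 1 was higher (HACD3) and 0 were lower, where 2572 of all 9888 genes had such a p. The largest differences were those of ELOVL4, an elongase of very long chains, at -0.26, and of the dehydratases HACD3 at 0.22 and HACD2 at 0.22, with limma adjusted p-values of 0.514, 0.0526 and 0.197. No gene of that list differed by 2-fold in any single-array comparison.

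INSIG1 and several sterol genes differed more than any member did. INSIG1, which retains the SREBP complex in the endoplasmic reticulum, read 1821 with pycnogenol serum and 1889 with control serum, against 6287 to 8806 in the other 5, a log2 difference with a 95% interval of -2.25 to -1.76 (limma adjusted p = 1.02e-06). Of 18 regulators above the filter 11 lay below 0 and 7 above. INSIG1 was the only one called lower, and 2 were called higher, where 6.02% of all genes were called lower and 4.13% higher. These 2 were NFYA, the CCAAT-binding subunit of NF-Y, at 0.47 (limma adjusted p = 0.0251) and the coactivator PPARGC1B at 0.52 (limma adjusted p = 0.0475). PPARGC1B lost its call without the eBayes trend, with no signal filter, without _x_at and _s_at probe sets and with probe sets fitted separately. PPARGC1B also lost it when the epicatechin, taxifolin, resveratrol or untreated array was left out. Its other probe set above the filter differed by 0.52 without a call (limma adjusted p = 0.144 over all probe sets). The other NFYA probe sets above the filter differed by 0.66 (limma adjusted p = 0.0262) and 0.058. NFYA lost its call with probe sets averaged (0.14) and with no signal filter. SREBF1 and SREBF2, which encode the SREBPs, differed by -0.32 and -0.35 without a call, and were named after their values were seen. All 10 sterol synthesis and transport genes above the filter lay below 0, with a median of -0.71, and 7 were called lower and 0 higher. The called genes were HMGCS1 at -1.93, MSMO1 at -1.82, STARD4 at -1.23, IDI1 at -1.01, SC5D at -0.75, SQLE at -0.67 and DHCR7 at -0.43. SC5D lost its call with probe sets averaged (-0.29, limma adjusted p = 0.423) and IDI1 without _x_at and _s_at probe sets (-0.45, limma adjusted p = 0.271). DHCR7 lost its call with probe sets averaged, median centring and no signal filter, and without the catechin or the untreated array. The second HMGCS1 probe set differed by -0.72 (limma adjusted p = 0.0264). Only 3 of 12 measured PPAR target genes reached the filter, ACADVL, CPT1A and SLC25A20, of which ACADVL was called, and 9 were under it.

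Of the 17 list genes called, 7 were called whichever array was left out, namely INSIG1 and the called sterol genes other than DHCR7. The other 10 were not called in some such fit, 9 of them without the pycnogenol serum array (ACADVL, ACSS2, CBR4, CPT2, DHCR7, ETFDH, LPIN2, NFYA and PPARGC1B) and 5 without the control serum array (ACADVL, CRAT, DHCR7, NFYA and PPARGC1B).

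**Figure D3:**
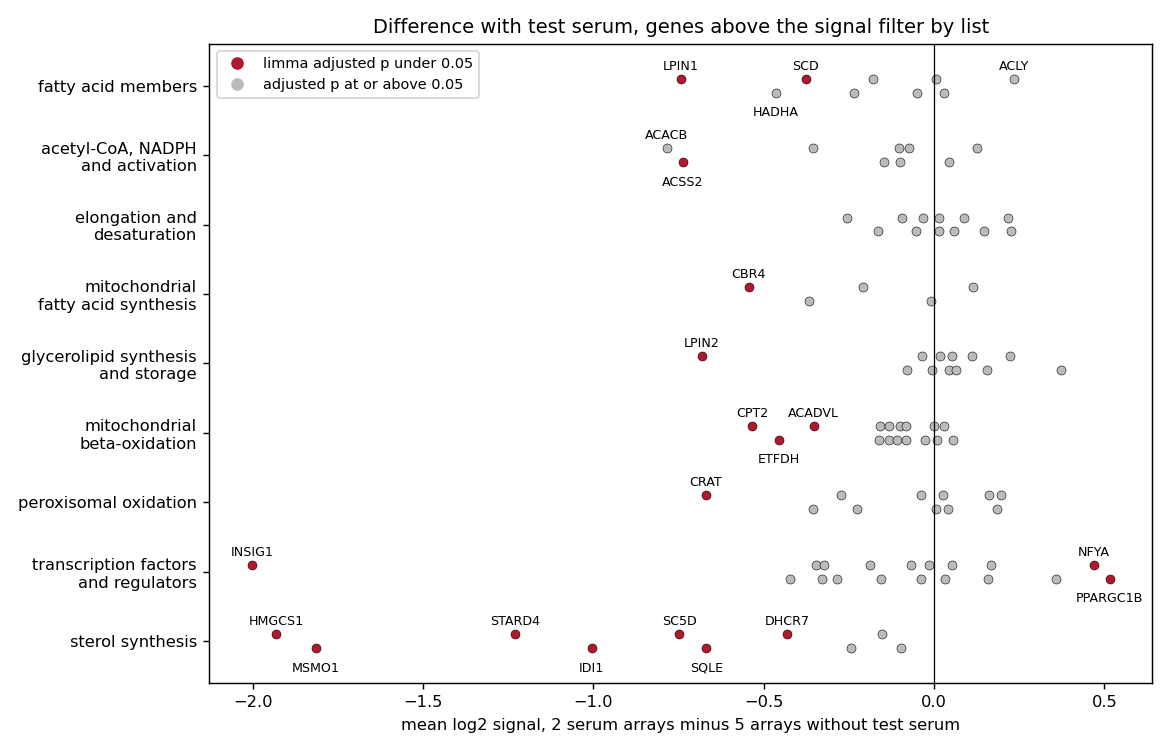
Log2 difference between test serum and no test serum for each gene above the filter, grouped by list, with 1 point per gene and red points for a limma adjusted p under 0.05. The sterol genes have a median of -0.71, and the elongation and desaturation genes, none of them red, one of 0.014.

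Control serum set against the untreated culture gave LPIN1 and HADHA the largest differences among the members. They differed by -0.81 and -0.80 on the log2 scale, FADS2 by -0.40, CPT1A and SCD both by -0.23 and ELOVL6 by -0.036, which became 0.060 with median centring. FASN differed by 0.091, ACLY by 0.28 and ACACA by 0.31. None of the 9 members reached 2-fold, where 1.2% of all genes did, and the standard deviation (SD) of the differences over all genes was 0.337. The synthesis and desaturation members had a median of 0.028 and all genes one of 0.0076, so that the members were split between higher and lower. The other HADHA probe sets differed by -0.087 and -0.23, and the second LPIN1 probe set by -0.53.

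This comparison and the one before it share the control serum array. The question of what serum taken after pycnogenol did beyond control serum rests on 1 array of each. FADS2 differed by 0.53 and FASN by 0.39, with ACLY at 0.13, while the other 6 members lay between -0.19 for CPT1A and -0.0038 for LPIN1. None of the 9 reached 2-fold, where 0.536% of all genes did, and the SD over genes was 0.277. The dimmest HADHA probe set differed by -0.60 and the other 2 by -0.063 and -0.066. The 2 dimmer ACLY probe sets differed by -0.075 and -0.36.

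**Figure D4:**
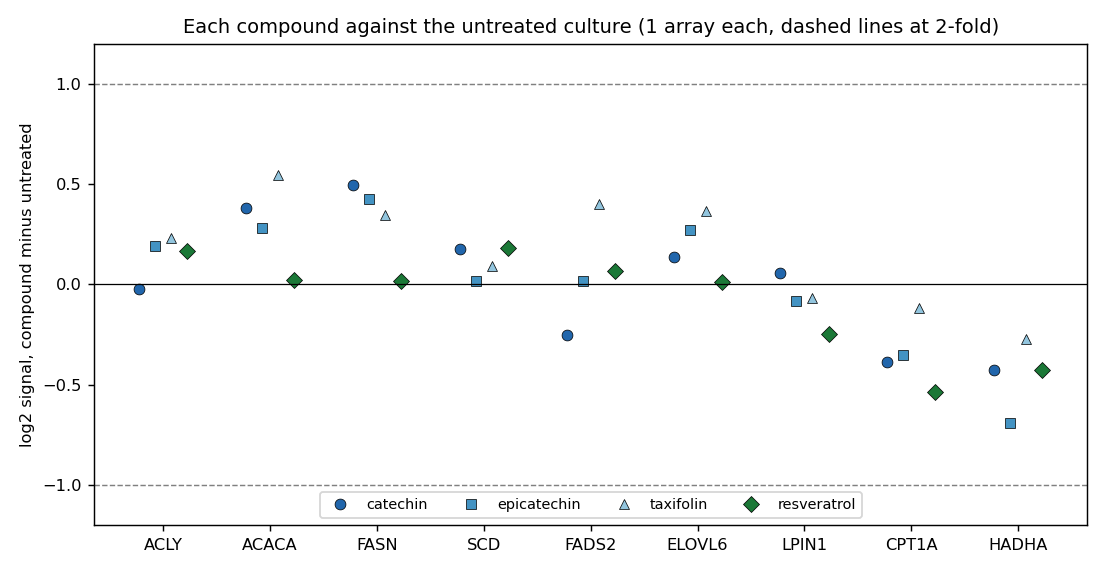
Log2 difference from the untreated culture for each of the 9 members under the 4 compounds, 1 symbol per compound, with dashed lines at a 2-fold difference. CPT1A and HADHA lie below 0 with each compound, between -0.69 and -0.12.

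The plant compounds were each set against the untreated culture, and the 4 differences share that array. With catechin, the synthesis and desaturation members ran from -0.25 for FADS2 to 0.49 for FASN with a median of 0.16, and CPT1A and HADHA were at -0.39 and -0.43. Epicatechin, the stereoisomer of catechin, gave 0.017 for SCD up to 0.43 for FASN with a median of 0.23, and -0.35 for CPT1A and -0.69 for HADHA. Catechin and epicatechin were given at different doses, so their values stand side by side only. With taxifolin, ACACA was at 0.55, FADS2 at 0.40, ELOVL6 at 0.37 and FASN at 0.34, the synthesis median was 0.36, and CPT1A and HADHA were at -0.12 and -0.27. With resveratrol, a stilbene and no flavonoid, the synthesis members ran from 0.012 to 0.18 with a median of 0.044, LPIN1 was at -0.25, CPT1A at -0.54 and HADHA at -0.43.

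None of the 9 members reached 2-fold with any compound, where 0.455% of all genes did with catechin, 0.314% with epicatechin, 0.465% with taxifolin and 0.728% with resveratrol. The SD of the differences over all genes was 0.255 with catechin, 0.235 with epicatechin, 0.246 with taxifolin and 0.282 with resveratrol. All 6 synthesis and desaturation members lay above 0 with epicatechin, taxifolin and resveratrol, and 4 of 6 did with catechin, but SCD turned to -0.022 with epicatechin under quantile normalization and to -0.019 under loess, and ACACA, FASN and ELOVL6 turned to -0.041, -0.048 and -0.053 with resveratrol under median centring. With all probe sets of a gene averaged, ACLY turned to -0.22 and FASN to -0.093 with epicatechin. SCD then turned to -0.084 with catechin, -0.16 with epicatechin, -0.24 with taxifolin and -0.080 with resveratrol. ACACA with resveratrol also fell below 0. Against the mean of the other 3 compound arrays, ACACA, FASN and ELOVL6 turned to -0.38, -0.41 and -0.25 with resveratrol. On this reference ACACA and FADS2 turned to -0.038 and -0.052 with epicatechin, and ELOVL6 to -0.081 with catechin. SCD also fell below 0 with epicatechin and taxifolin. Against the same mean CPT1A and HADHA turned to 0.31 and 0.24 with taxifolin, and HADHA to 0.036 with catechin and 0.035 with resveratrol. HADHA with epicatechin and CPT1A with catechin, epicatechin and resveratrol stayed below 0. The 2 dimmer ACLY probe sets differed by -0.30 and -0.55 with epicatechin, and the 3 dimmer SCD probe sets by -0.61, -0.39 and -0.050 with taxifolin. Of all genes 57.3% lay above 0 with epicatechin, 57.2% with taxifolin, 54.8% with resveratrol and 57.6% with catechin. The untreated culture was above all 4 compound cultures in HADHA and CPT1A, where 14.7% of all genes showed this order. For HADHA it rests on the brightest probe set, since the second differed by 0.093 with catechin, -0.038 with epicatechin, 0.13 with taxifolin and -0.055 with resveratrol.

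Taxifolin and epicatechin are the only compounds of equal dose and time. They share the flavan skeleton, and taxifolin carries a ketone on the central ring that epicatechin lacks. HADHA differed by 0.42 between the taxifolin and the epicatechin culture, FADS2 by 0.38, ACACA by 0.27 and CPT1A by 0.23. FASN differed by -0.083, and ELOVL6, SCD, ACLY and LPIN1 by 0.094, 0.077, 0.040 and 0.013. Thus 8 of 9 members lay above 0, where 50.1% of all genes did, and 0 reached 2-fold, where 0.324% of all genes did. This was the 1 pair compared, and with 1 array each neither a test nor an interval of the difference can be had. Other probe sets above the filter gave other values, 0.59 and 0.53 for the 2 dimmer ones of ACLY and -0.017 for the second of ACACA. Those of SCD gave -0.44, 0.095 and -0.062, and those of ELOVL6 -0.32 and 0.0015. The second of LPIN1 gave 0.14, and those of HADHA 0.17 and -0.19. The count of 8 therefore holds for the brightest probe sets only.

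Beside the members, 2 list genes, ACACB and DECR2, differed from the untreated culture by 2-fold or more with at least 3 of the 4 compounds, and both had an untreated signal under the filter. ACACB, the carboxylase isoform whose malonyl-CoA restrains CPT1, read 375 with catechin, 363 with epicatechin, 483 with taxifolin and 379 with resveratrol, against 153 untreated, which gave differences of 1.30, 1.25, 1.66 and 1.31. It read 180 with pycnogenol serum and 202 with control serum. Its mean over all 7 probe sets, of which 6 were under the filter, differed by 0.0013 with catechin, 0.052 with epicatechin, 0.046 with taxifolin and 0.013 with resveratrol. DECR2, a peroxisomal dienoyl-CoA reductase, read 494 with catechin, 400 with epicatechin, 265 with taxifolin and 910 with resveratrol, against 148 untreated, which gave differences of 1.74, 1.43, 0.84 and 2.62. It read 414 with pycnogenol serum and 431 with control serum.

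The mean centred log2 profile of the 6 synthesis and desaturation members spanned 0.33 over the 7 cultures, highest with taxifolin at 0.20 and lowest untreated at -0.13 and with control serum at -0.12. Of the 685 other genes above the filter that spanned at least 2-fold, those with the highest Pearson correlation to this profile were NFRKB (0.937), ZDHHC8 (0.911), NUDT17 (0.900), ZNF226 (0.839), FUOM (0.790), DTX3 (0.788), INHBB (0.781) and ACACB (0.763). NFRKB read 901 with pycnogenol serum and 531 with control serum, against 796 with catechin, 930 with epicatechin, 1241 with taxifolin, 802 with resveratrol and 650 untreated. These correlations run over 7 single arrays that share their scaling, and they describe likeness among these cultures only.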

How the data were processed

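Total RNA of 7 cultures of HT1080 cells was measured on 1 array each. The authors deposited 1 signal intensity per probe set, computed with MAS5 per the submitters' processing notes, and the MAS5 version and detection calls were not given in the sources used here. The intensity scale is linear, and every array had a mean of 1000 once the top and bottom 2% were trimmed.

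Probe sets were named through the platform's annotation with symbols brought up to date by RefSeq. Of them 41097 had 1 gene, 1801 several and 11777 none, and the last 2 kinds were left out. Signals under 34.9, the 25th percentile of all, were raised to it and log2 was taken. A gene was read from its probe set with the highest mean, and genes were compared where this mean reached the median over genes. No member's chosen probe set had a signal under 34.9. Single arrays were compared by their log2 difference with a count at 2-fold. The 2 arrays with test serum and the 5 without were compared with limma 3.58.1 in R 4.3.3 (lmFit, eBayes with trend), with Benjamini-Hochberg adjustment over 9888 genes and a threshold of 0.05. The procedure was tested on simulated data with independent noise and an equal added difference in both serum arrays. Treatment differences within a side and shifts between arrays were not simulated, so that test does not bear on them. Precision depends on the number of arrays and on the spread of each gene, and array signals hold no count of molecules.

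The members and lists were chosen with earlier results of these data known. Text names came from a rule: all members, each list gene past 2-fold or called, the 3 largest differences of each list in the limma fit, and the 8 genes most alike in profile. The fit on each probe set was added after seeing the data. Alternatives were quantile normalization, loess with a span of 0.3, median centring, other floors, filters, probe set rules, thresholds and reference arrays, no trend, and each array left out. Listed genes without an annotated probe set were not analysed here.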

Additional observations from a re-analysis of the deposited data

How the results depend on the processing

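Counts of members at 2-fold were 0 in each single-array comparison and stayed so under all settings but the threshold of 1.5-fold, which gave 2 for control serum against untreated (LPIN1 and HADHA) and 1 for epicatechin against untreated (HADHA). The count of members called in the serum fit was 2, ran from 1 to 3 when 1 array was left out, and was 1 without the pycnogenol serum array, without _x_at and _s_at probe sets (no SCD probe set remained) and with no signal filter. HADHA was called without the epicatechin array (-0.55, limma adjusted p = 0.0229) and with probe sets averaged (-0.37, limma adjusted p = 0.0414). The cause was not tested.

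The calls over all genes, 1003 (408 higher, 595 lower), ran from 261 to 1132 when 1 array was left out (85 to 465 higher, 176 to 667 lower), with 261 (85 higher, 176 lower) without pycnogenol serum and 591 (198 higher, 393 lower) without control serum, where fewer samples entered. They were 1606 (1256 higher, 350 lower) with median centring, 541 (216 higher, 325 lower) with the mean of all probe sets, 391 (145 higher, 246 lower) with no signal filter, and 612 (285 higher, 327 lower) with the filter at the 75th percentile. The limma fit had 2572 genes at an unadjusted p under 0.05.

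In the serum fit, the genes named in the text whose difference turned sign had no call, except CRAT, which gave 0.32 with probe sets averaged. With 1 array left out, FASN ran from -0.17 (without pycnogenol serum) to 0.22 (without control serum), with -0.032 without resveratrol and -0.036 without the untreated array. ACACA ran from -0.055 (without the untreated array) to 0.082 (without taxifolin), with -0.050 without control serum and -0.049 without resveratrol. CPT1A ran from -0.15 (without control serum) to 0.044 (without pycnogenol serum), with 0.019 without the untreated array, and gave 0.064 with median centring. FADS2 ran from -0.44 (without pycnogenol serum) to 0.084 (without control serum), and DECR2 from -0.14 (without the untreated array) to 0.51 (without resveratrol). SLC25A20 ran from -0.072 (without pycnogenol serum) to 0.016 (without control serum), with 0.012 without resveratrol, and gave 0.00058 with loess and 0.087 with median centring.

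No paired analysis was possible because each labelled group holds 1 array. Without replicates, single-array differences cannot be set against a replicate error, and signals near the filter were not shown to lie above background.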
